A study of Mus musculus with 16 samples.

Results

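The genes described here are 10 rapidly induced response genes of the Ier, Btg, Zfp36, Klf and Csrnp families: Ier2, Ier3, Ier5, Btg1, Btg2, Zfp36, Klf4, Klf6, Klf10 and Csrnp1. They were chosen by name, with earlier results of these data known, and make up 10 of the 23329 genes in the count table. They were measured by polyadenylated RNA sequencing in BetaTC6 cells, a mouse β-cell line of C57BL/6 background that derives from an insulinoma. The 16 libraries form 4 groups of 4. The groups are wild-type cells with DMSO, the vehicle, wild-type cells with ivermectin, cells labelled P2ry1 knockout with DMSO, and cells labelled P2ry1 knockout with ivermectin. All of them were grown for 3 days, kept in albumin buffer lacking glucose, and then stimulated for 30 min at 20 mM glucose, so that no group was left unstimulated. The concentration of ivermectin, an antiparasitic drug, is not given in the sources used here, nor is the way the knockout was made or whether that line is 1 clone. P2ry1 encodes a purinergic receptor, and the comparisons ask how β cells respond to ivermectin with and without it. The labels do not say that replicates came from separate cultures, so p-values measure the spread between these libraries, which may be technical.

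Rapid-response genes are transcribed within minutes of a stimulus from factors already present in the cell, without new protein synthesis. Calcium and cyclic AMP signals reach many of their promoters through CREB, and growth-factor signals through serum response factor and its ETS partners. In β cells, glucose closes potassium channels, the membrane depolarizes and calcium enters, which is a known trigger of this programme. The Ier proteins are small nuclear or stress-response proteins, Btg1 and Btg2 are antiproliferative adaptors that bind the CCR4-NOT deadenylase, and Zfp36 (tristetraprolin) is a zinc-finger protein that binds AU-rich elements and promotes decay of the messages that carry them. Klf4, Klf6 and Klf10 are Krüppel-like zinc-finger transcription factors, Klf10 being an early TGF-β target, and Csrnp1 is a nuclear protein induced by axin.

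Positions are those of GRCm38.p6, the assembly that mm10 represents, and mm10 is the build in the submitters' processing notes. Ier2 lies at chr8:84661331-84662852 and Ier5 at chr1:155096367-155099636, both on the minus strand and each in 1 exon. Ier3 has 2 exons at chr17:35821713-35822911 on the plus strand. Btg1 has 2 exons at chr10:96617001-96622813 on the plus strand, and Btg2 has 2 at chr1:134074865-134079155 on the minus strand. Zfp36 has 2 exons at chr7:28376784-28379228 on the minus strand. Klf4 has 5 exons at chr4:55527137-55532475 on the minus strand. Klf6 has 4 exons at chr13:5861489-5870393 on the plus strand, and Klf10 has 4 at chr15:38291464-38300711 on the minus strand. Csrnp1 has 5 exons at chr9:119971163-119984742 on the minus strand. Klf10 and Csrnp1 overlap opposite-strand noncoding genes, Gm35248 over 1965 bases and Gm33800 over 898 bases. Neither noncoding gene is in the count table. The strand setting of the counting is not given in the sources used here, so reads of these partners cannot be told apart from those of Klf10 and Csrnp1.

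RefSeq promoters (250 bases before to 50 after the start) matched 8 of the 10 genes, all but Ier2 and Klf10. The 250 upstream bases are shown for the 4 matched genes that passed the test in a comparison, and for Zfp36, which carries a serum response motif. Capitals mark matches to the cAMP response element TGACGTCA, its half-site TGACG on either strand, the TATA box TATAAA and the CArG box, the binding sequence of serum response factor.
Btg2 (chr1:134079156-134079405, minus strand): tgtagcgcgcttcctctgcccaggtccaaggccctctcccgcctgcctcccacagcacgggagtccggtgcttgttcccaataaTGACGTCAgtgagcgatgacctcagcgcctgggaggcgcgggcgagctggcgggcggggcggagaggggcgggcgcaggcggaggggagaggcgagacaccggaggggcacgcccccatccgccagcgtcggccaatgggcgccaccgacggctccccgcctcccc
Btg1 (chr10:96616751-96617000, plus strand): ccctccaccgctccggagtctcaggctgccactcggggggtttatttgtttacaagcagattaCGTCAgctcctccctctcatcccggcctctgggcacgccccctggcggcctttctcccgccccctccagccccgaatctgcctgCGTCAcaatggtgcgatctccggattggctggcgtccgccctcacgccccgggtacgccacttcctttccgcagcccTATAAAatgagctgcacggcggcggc
Zfp36 (chr7:28379229-28379478, minus strand): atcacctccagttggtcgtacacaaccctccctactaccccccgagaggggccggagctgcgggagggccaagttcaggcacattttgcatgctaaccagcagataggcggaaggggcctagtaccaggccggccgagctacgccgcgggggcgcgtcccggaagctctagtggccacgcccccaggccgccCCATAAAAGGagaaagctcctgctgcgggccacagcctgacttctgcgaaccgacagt
Klf4 (chr4:55532476-55532725, minus strand): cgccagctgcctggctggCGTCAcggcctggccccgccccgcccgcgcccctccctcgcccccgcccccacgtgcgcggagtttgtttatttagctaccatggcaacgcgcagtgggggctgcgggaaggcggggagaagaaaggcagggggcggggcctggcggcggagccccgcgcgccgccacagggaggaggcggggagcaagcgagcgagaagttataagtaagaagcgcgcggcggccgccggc
Klf6 (chr13:5861239-5861488, plus strand): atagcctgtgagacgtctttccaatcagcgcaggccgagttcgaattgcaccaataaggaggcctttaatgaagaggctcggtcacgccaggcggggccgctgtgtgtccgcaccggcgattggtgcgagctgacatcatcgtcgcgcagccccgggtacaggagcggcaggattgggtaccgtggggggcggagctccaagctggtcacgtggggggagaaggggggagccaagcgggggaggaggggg
Both strands of the 300-base windows were searched. Klf6 holds none of the 4 motifs marked by capitals. Btg2 was the 1 member with the full element TGACGTCA, at -166 to -159 from its start, which 1.88% of the 27025 RefSeq promoters hold. The half-site TGACG was found in 4 of 8 (Btg1, Btg2, Klf4 and Csrnp1) against 21.0% of all promoters, and the full element of Btg2 contains it on both strands. Zfp36 was the 1 member with a CArG box, at -58 to -49, against 1.57% of all promoters. Btg1 was the 1 member with TATAAA, at -26 to -21, against 14.2%. The ETS core GGAAG was found in 8 of 8 (71.1% of all promoters), the GC box GGGCGG in 7 of 8 (35.9%) and the AP-1 site TGANTCA in 0 of 8 (7.93%). These matches describe letters in a window and are not evidence of binding.

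The 3′ ends differ too, and AU-rich elements there are known to shorten the life of a message. The element TTATTTATT, the preferred site of the Zfp36 protein, was found in the longest annotated 3′ untranslated region of 2 of the 10 genes, against 7.73% of 18263 genes of the table. The 2 sites are printed with flanking bases and the element in capitals.
Zfp36: tgacgactTTATTTATTgtattaag
Csrnp1: ctctgaatTTATTTATTtttttatg
The shorter motif ATTTA was present in 9 of 10, all but Ier2, against 67.0% of all genes. Btg1 held 11 copies in 4166 bases and Klf6 held 7 in 3111 bases, whereas Ier3 held 5 in 613 bases. ATTTA is also part of TTATTTATT, and longer regions hold more copies.

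Library totals ran from 893088 to 2013242 counts, and the 4 wild-type vehicle libraries were the 4 smallest. Levels are given as CPM, the counts of a gene relative to its library's scaled total. Where a gene has 0 counts, 3 counts were taken as the limit, which is 1.49 to 3.36 CPM depending on the library, and limits of this kind cover counting error only. P2ry1 did not separate the lines: in vehicle it stood at 94.1 ± 8.41 CPM in wild type and at 83.5 ± 8.83 in the labelled knockout (SD, n = 4 each; adjusted p = 0.241), and 92.5 ± 7.52 and 85.0 ± 4.84 under ivermectin (adjusted p = 0.399). Counts summed over the gene check nothing about a small edit, so the line is called labelled knockout throughout. Of 18 β-cell markers, 17 passed the count filter, with sums of 37800 to 49100 CPM per library. Lists for acinar and ductal, immune, endothelial, fibroblast and muscle cells each summed to at most 32.0 CPM, and none of their genes passed the count filter. The fibroblast list summed to 8.50 to 11.2 CPM in wild-type vehicle and to 1.99 to 6.24 in the other 3 groups, without overlap, with Pdgfrb at 0 in both wild-type groups. The skeletal muscle list summed to 14.6 to 32.0 CPM in wild-type vehicle, 7.10 to 21.3 in wild-type ivermectin and 3.97 to 7.50 in the labelled knockout groups, with Myh1 at 0 in all 4 groups. The endothelial list summed to 2.12 to 3.88 CPM in wild-type vehicle, 0.546 to 2.28 in wild-type ivermectin and 0.497 to 1.95 in the labelled knockout groups. The 7 genes of other islet endocrine cells summed to 480 to 564 CPM in the wild-type groups and to 233 to 284 in the labelled knockout groups, without overlap, with Ghrl at 0 in every group but wild-type ivermectin. The 24 hepatocyte genes stood apart: they summed to 752 to 2210 CPM in wild-type vehicle, 138 to 393 in wild-type ivermectin, 74.3 to 163 in labelled knockout vehicle and 102 to 356 in labelled knockout ivermectin, with none at 0 in any group. Fewer cells of a type and less RNA per cell cannot be told apart in these bulk samples.

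Levels between genes were compared on RSEM's TPM scale, which allows for transcript length. In wild-type vehicle cells Btg1 (42.9 ± 5.55 TPM) and Ier2 (42.5 ± 2.35) were highest, with overlapping library ranges, above 85.2% and 85.0% of the genes of the table. Btg2 (24.8 ± 3.56), Klf6 (22.9 ± 0.613) and Klf10 (20.7 ± 2.63) followed, each overlapping the next. Ier3 (12.4 ± 4.03), Ier5 (11.2 ± 3.21), Klf4 (10.1 ± 1.76) and Zfp36 (6.92 ± 4.23) formed a lower series that also overlapped, and Csrnp1 came last by its mean, 0.97 ± 0.907 (SD, n = 4 for each), with a library range that overlapped that of Zfp36. Under ivermectin in wild-type cells Ier2 stood first at 77.7 ± 21.3 TPM, followed by Btg1 at 44.9 ± 0.94 and Btg2 at 39.7 ± 5.04, and the library ranges of these 3 did not overlap. In the labelled knockout line Ier2 and Btg1 again led, at 53.8 ± 6.71 and 51.1 ± 5.83 TPM in vehicle, where they overlapped, and at 60.1 ± 7.25 and 46.1 ± 1.93 under ivermectin.

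**Figure D1:**
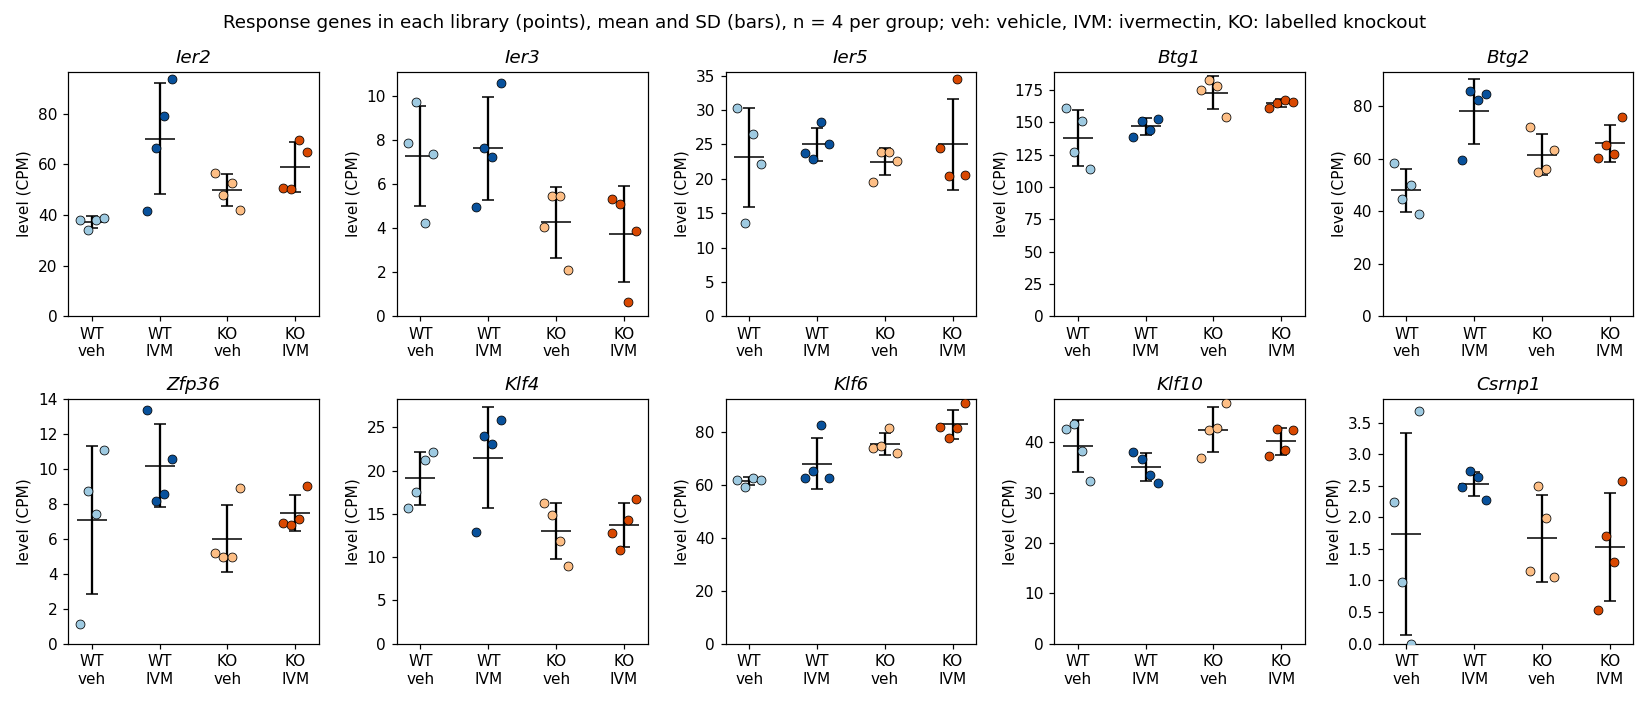
Level in CPM of each of the 10 genes in every library (points, replicates 1 to 4 from left to right) with the mean and SD of each group of 4 (bars), each panel starting at 0. Ier2 and Btg2 lie higher in wild-type ivermectin than in wild-type vehicle, with replicate 1 of the ivermectin group the lowest of its group for both (41.6 and 59.4 CPM), and Csrnp1 stays at or below 3.69 CPM.

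Ivermectin in wild-type cells was accompanied by higher Ier2 and Btg2, while the other 7 genes tested did not pass. Of the 9 that passed the count filter, 2 were called higher and 0 lower at an adjusted p under 0.05, where 0.601% of the 10820 genes tested were called (0.0555%, or 6 genes, higher and 0.545% lower). The median log2 difference of the 9 was 0.12, against -0.001 over all genes tested, and 8 of 9 lay above 0 (49.9% of all genes did). Groups did not overlap for 2 of 9, both higher, against 1.41% of all genes. The genes were chosen with earlier results of these data known, so these shares describe them and are not an independent test.

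Ier2, a growth-factor-inducible nuclear regulator, was at 38.1, 34.0, 38.2 and 38.8 CPM in the wild-type vehicle libraries and at 41.6, 66.6, 79.1 and 93.6 CPM under ivermectin. The groups did not overlap, but replicate 1 under ivermectin lay close to the highest vehicle value while the other ivermectin libraries were well clear of it. The rise was 0.87 on the log2 scale (SE 0.186), or 1.82-fold with a 95% interval of 1.40 to 2.37 (adjusted p = 0.00793). With the test restricted to genes averaging 50 counts or more, the estimate was 0.86 and missed the threshold (adjusted p = 0.0609). In labelled knockout cells Ier2 was at 56.6, 47.8, 52.7 and 42.0 CPM in vehicle and at 50.7, 50.5, 69.6 and 65.0 CPM under ivermectin. These groups overlapped, and all 8 values lay above the 4 of wild-type vehicle. The spread of Ier2 in wild-type ivermectin was far above counting noise (chi-squared per degree of freedom 12.2), whereas that in wild-type vehicle was below it (0.136).

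Btg2, the antiproliferative p53-inducible adaptor whose promoter carries the full cAMP response element shown above, was at 58.3, 44.7, 49.9 and 38.8 CPM in wild-type vehicle and at 59.4, 85.7, 82.4 and 84.4 CPM under ivermectin. Replicate 1 was the highest vehicle library and the lowest ivermectin library, so the groups did not overlap but met closely at that edge. Btg2 rose by 0.70 on the log2 scale (SE 0.142), or 1.62-fold with a 95% interval of 1.33 to 1.98 (adjusted p = 0.0038). Labelled knockout libraries held it at 72.1, 54.8, 56.2 and 63.1 CPM in vehicle and at 60.3, 65.3, 61.8 and 75.9 under ivermectin, with overlap. Without wild-type vehicle replicate 4, the lowest of its group, the wild-type difference was 0.60 with an adjusted p of 0.0666.

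The other 7 genes tested did not pass in wild-type cells. Zfp36 gave an estimate of 0.49 (95% interval -0.21 to 1.18), on 29 counts in vehicle and 69 under ivermectin over the 4 libraries of each. It was at 1.12, 8.74, 7.43 and 11.1 CPM in vehicle and at 13.4, 8.19, 8.57 and 10.6 under ivermectin, and the groups overlapped. The estimate ran from 0.17 without vehicle replicate 1, which held 1 count, to 0.79 without vehicle replicate 4. Btg1, the close relative of Btg2, differed by 0.09 (95% interval -0.09 to 0.28), so a rise of the size seen in Btg2, 0.70, lay outside its interval. The same held for Klf6 at 0.14 (-0.09 to 0.38), Klf10 at -0.14 (-0.45 to 0.17), Ier5 at 0.12 (-0.29 to 0.54) and Klf4 at 0.12 (-0.34 to 0.58). The intervals of Zfp36 and of Ier3, at 0.01 (-0.77 to 0.78), did include 0.70. Ier3 had 29 and 49 counts in the 2 groups.

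Several measures moved with these differences. All 23 tested hepatocyte genes fell with ivermectin in wild-type cells, with a median log2 difference of -2.70, and the fibroblast sum was lower under ivermectin without overlap. The part of the fibroblast genes in these results was not tested. Within wild-type ivermectin, the library lowest in Ier2 and Btg2 (replicate 1) had the highest Alb, the albumin transcript of liver, at 170 CPM against 57.3 to 111 in the others, and the largest total, 1971281 counts. The library highest in Ier2 (replicate 4) had 2.99% of its counts in the ribosomal gene Rn45s, against 0.139 to 0.601% in the other 15 libraries. Without replicate 4, Ier2 differed by 0.72 (adjusted p = 0.0408), and without replicate 1 by 1.08 (adjusted p = 9.96e-06). With every library thinned to 893088 counts, Ier2 differed by 0.98 and Btg2 by 0.68, and both still passed (adjusted p = 0.000247 and 0.00479). With log2 Alb as a covariate, Ier2 differed by 0.65 (SE 0.27) and Btg2 by 0.55 (SE 0.209), and neither passed (adjusted p = 1 for both). In that fit 1 gene of all those tested passed. Alb was at 325 to 920 CPM in wild-type vehicle and at 57.3 to 170 under ivermectin, without overlap. Alb and treatment therefore cannot be told apart by this fit.

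**Figure D2:**
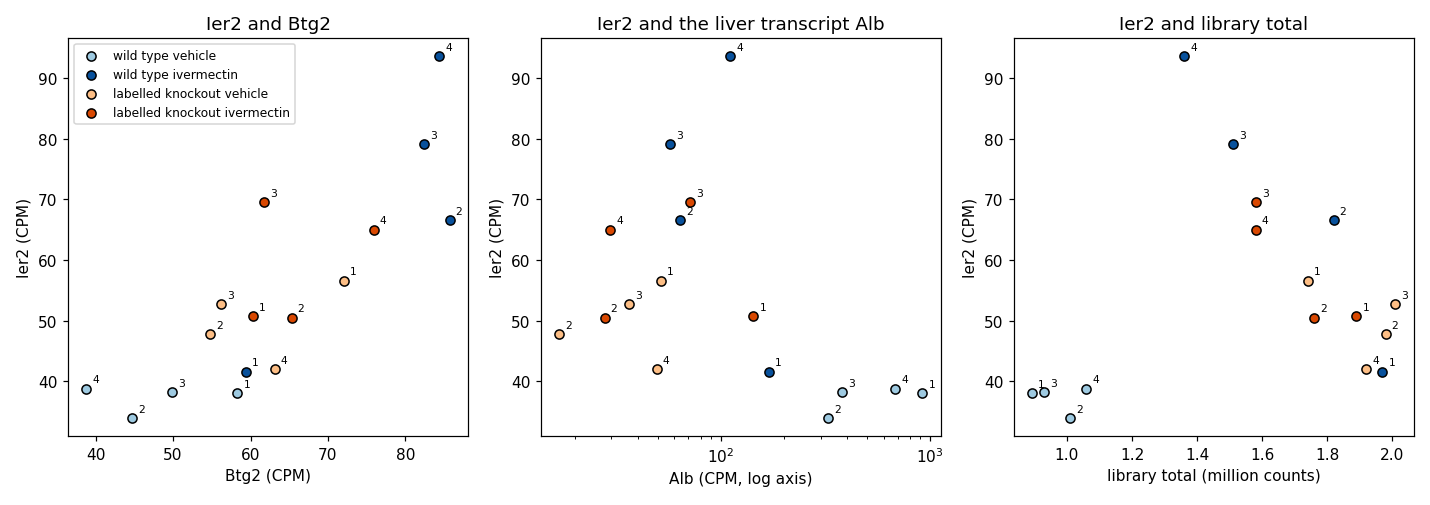
Ier2 (CPM, vertical axes) in the 16 libraries against Btg2 (CPM, left), Alb (CPM on a log axis, middle) and the library total (right), with each point numbered by replicate and coloured by group. Wild-type ivermectin replicates 2 to 4 hold the highest values of Btg2, 82.4 to 85.7 CPM, and replicate 1 of that group lies at 41.6 CPM of Ier2 with 170 CPM of Alb.

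Ivermectin gave no call among the 9 genes in the labelled knockout line. By edgeR 0 were called, where 0% of all 10820 genes were, and 0 of 9 reached an unadjusted p under 0.05 (7.57% of all genes, 819, did). DESeq2 also called 0 of the 9. The estimate of Ier2 was 0.23 (95% interval -0.08 to 0.55, adjusted p = 0.746) and that of Btg2 was 0.10 (-0.14 to 0.34, adjusted p = 0.879). Both upper bounds lie below the wild-type estimates of 0.87 (0.49 to 1.25) and 0.70 (0.41 to 0.99). The intervals of the lines overlap for Ier2 and not for Btg2, and the direct test of this difference, given below, called neither. With 1 library left out, Ier2 ran from 0.15 to 0.30 and Btg2 from 0.026 to 0.18. Thinned to 1 total, Ier2 was at 0.42. Zfp36 differed by 0.30 (-0.36 to 0.96), and the remaining 6 lay between -0.16 for Ier3 and 0.14 for Ier5. The median of the 9 was 0.10, against 0.002 over all genes, and 6 of 9 lay above 0 (50.6% of all genes did). The hepatocyte list did not follow the wild-type direction here, since 22 of its 23 tested genes were above 0, with a median of 0.66 and 0 called.

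The difference between the responses of the lines was tested directly. None of the 9 genes passed (0 of 9), where 0.222% of all genes, 24, were called (0.213% with a higher and 0.00924% with a lower response in the labelled knockout line). Among the wild-type ivermectin libraries, leaving out replicate 1 raised that count over all genes to 45 and leaving out replicate 3 lowered it to 14, and it fell to 8 without labelled knockout ivermectin replicate 1. At an unadjusted p under 0.05 there were 2 of 9, Ier2 and Btg2, against 5.06% of all genes. For Ier2 the response in the labelled knockout line minus that in wild type was -0.63 on the log2 scale (SE 0.244, 95% interval -1.13 to -0.14, unadjusted p = 0.0137, adjusted p = 0.854). For Btg2 the value was -0.60 (SE 0.187, -0.98 to -0.22, unadjusted p = 0.00275, adjusted p = 0.453). DESeq2 called 0 of the 9. Without wild-type ivermectin replicate 1 both passed, Ier2 at -0.85 (adjusted p = 0.0337) and Btg2 at -0.73 (adjusted p = 0.0412). With Alb as a covariate they were at -0.37 (SE 0.342) and -0.41 (SE 0.265), with adjusted p = 1 for both. Hepatocyte genes moved with this contrast: 23 of 23 tested were above 0, with a median of 3.35, and 13 of them were among the 23 genes called higher. The other 7 differences lay between -0.18 for Zfp36 and 0.06 for Klf10, with adjusted p = 1 for each. Since the responses share the vehicle groups with the line comparisons, the vehicle levels of Ier2 and Btg2 in the labelled knockout line enter this difference: their means there were 49.8 ± 6.27 and 61.5 ± 7.93 CPM, against 37.3 ± 2.22 and 47.9 ± 8.28 in wild-type vehicle.

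**Figure D3:**
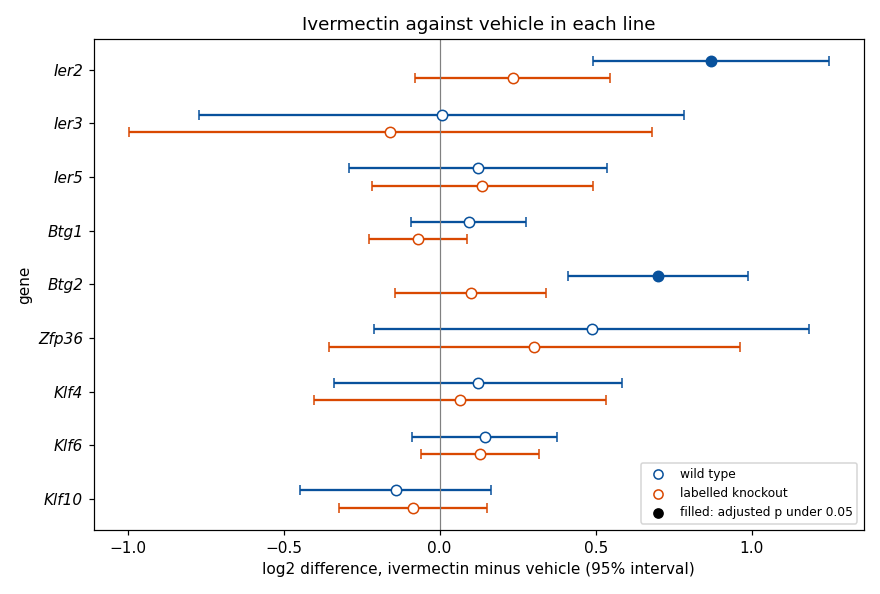
Fitted log2 difference (horizontal axis, ivermectin minus vehicle) with its 95% interval for the 9 genes tested, in wild type (blue) and in the labelled knockout line (orange), filled where the adjusted p is under 0.05. Ier2 (0.87) and Btg2 (0.70) in wild type are the 2 filled points, and every interval of the labelled knockout line includes 0.

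Between the lines in vehicle, Btg1 and Klf6 were higher in labelled knockout cells. They were 2 of the 9 called, both higher, and 0 were lower, where 20.6% of all genes were called (9.79% higher and 10.9% lower), so the share called was near that of all genes. Btg1 was at 161, 127, 151 and 114 CPM in wild type and at 175, 183, 178 and 154 in the labelled knockout line. The groups overlapped at 1 library of each, and the difference was 0.33 (SE 0.0875, 1.26-fold, 95% interval 1.11 to 1.42, adjusted p = 0.00549). Without wild-type vehicle replicate 4, the lowest, it was 0.24 with an adjusted p of 0.0581. Klf6, a Krüppel-like factor known as a growth suppressor, was at 61.7, 59.2, 62.7 and 61.9 CPM in wild type and at 73.9, 74.7, 81.5 and 72.0 in the labelled knockout line, with no overlap. It differed by 0.30 (SE 0.110, 1.23-fold, 1.06 to 1.44, adjusted p = 0.0479), just inside the threshold, and passed in none of the 8 fits that left out 1 library of these groups (adjusted p 0.0501 to 0.116). With DESeq2, Klf6 did not pass (adjusted p = 0.124).

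Ier2 and Btg2 in vehicle gave 0.41 (95% interval 0.02 to 0.81, adjusted p = 0.126) and 0.37 (0.07 to 0.66, adjusted p = 0.0676), and the Ier2 groups did not overlap. Non-overlapping groups, all higher, were seen for 2 of 9 genes, Ier2 and Klf6, against 10.7% of all genes. Without the count filter both Ier2 and Btg2 passed (adjusted p = 0.0206 and 0.0222), as they did with the 8 vehicle libraries alone (0.0324 and 0.0493), a fit in which Klf6 missed (0.30, adjusted p = 0.0518). Btg2 also passed without wild-type vehicle replicate 1 (0.47, adjusted p = 0.0321) or labelled knockout vehicle replicate 2 (0.42, 0.0413). Without wild-type vehicle replicate 4 it was at 0.27 (adjusted p = 0.248). Thinning to 1 total gave 0.39 for Ier2 and 0.30 for Btg2 (adjusted p = 0.167 and 0.18). Alb as a covariate gave 0.08 and 0.14 (adjusted p = 0.948 and 0.868), with SEs of 0.355 and 0.275 against 0.193 and 0.145 without it. Klf4, a factor of cell identity and growth arrest, and Ier3, a survival regulator, gave -0.57 (adjusted p = 0.0932) and -0.76 (adjusted p = 0.197). Over the alternative fits Klf4 ran from -1.19 to -0.43 and Ier3 from -1.37 to -0.54, and neither passed in any of them. Zfp36 (-0.28), Ier5 (-0.02) and Klf10 (0.12) had intervals that included 0. All 23 tested hepatocyte genes fell between these groups as well, by a median of -3.63. Of the 3 tested genes of other islet endocrine cells 0 were above 0 and 2 were called lower (10.9% of all genes were). The fibroblast, muscle and endothelial sums were also lower in the labelled knockout line, without overlap. The part of these 4 lists in the line results was not tested. The totals of the labelled knockout libraries were higher, at 1744127 to 2013242 counts. With all libraries thinned to the same total Btg1 was at 0.25 (adjusted p = 0.0954) and Klf6 at 0.27 (adjusted p = 0.206). With Alb as a covariate they were at 0.22 (adjusted p = 0.579) and 0.13 (adjusted p = 0.833). Alb was at 325 to 920 CPM in wild-type vehicle and at 16.9 to 51.9 in labelled knockout vehicle, without overlap. Alb and line therefore cannot be told apart by this fit.

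Under ivermectin, Klf6 was higher and Klf4 lower in the labelled knockout line, 1 gene in each direction of the 9, where 27.8% of all genes were called (14% higher and 13.8% lower). Klf6 was at 62.4, 65.0, 82.4 and 62.4 CPM in wild type and at 81.6, 77.7, 81.3 and 90.7 in the labelled knockout line. Wild-type replicate 3 overlapped the labelled knockout libraries and the other 3 did not. The difference was 0.29 (SE 0.0968, 1.22-fold, 95% interval 1.06 to 1.40, adjusted p = 0.0244). Klf4 was at 12.9, 24.0, 23.1 and 25.9 CPM in wild type and at 12.8, 10.8, 14.3 and 16.7 in the labelled knockout line. Here wild-type replicate 1 lay among the labelled knockout values, the same library that was lowest in Ier2 and Btg2. Klf4 fell by 0.63 on the log2 scale (SE 0.216, 0.648-fold, 0.478 to 0.878, adjusted p = 0.0276).

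These 2 calls depended on single libraries and on the tool, and that of Klf6 also on depth and on Alb. Klf4 lost its call without wild-type ivermectin replicate 2 (adjusted p = 0.092), 3 (0.0699) or 4 (0.0818), and without labelled knockout replicate 1 (0.0641) or 2 (0.0893). Klf6 lost its call without wild-type replicate 1 (0.0988), 2 (0.0726) or 4 (0.0605), and without labelled knockout replicate 4 (0.0875). It was also lost with all libraries thinned to the same total (0.23, adjusted p = 0.259) and with Alb as a covariate (0.25, adjusted p = 0.0683), while Klf4 passed in both. DESeq2 called neither (adjusted p = 0.0618 and 0.0834). Without wild-type replicate 1, Ier2 (-0.43, adjusted p = 0.0115), Btg2 (-0.36, 0.0198) and Ier3 (-1.11, 0.0416) were called lower in the labelled knockout line beside Klf4. With all libraries in, Ier2 was at -0.22 (adjusted p = 0.29), Btg2 at -0.23 (0.141), and Ier3 at -0.92 (0.0671). The smallest differences with 1 library left out were -0.065 for Ier2, -0.18 for Btg2 and -0.61 for Ier3. That of Ier2 came without wild-type replicate 4 (adjusted p = 0.779). Btg1 was at 139, 151, 144 and 153 CPM against 161, 165, 167 and 166, without overlap (12.7% of all genes were higher without overlap), and differed by 0.17 (adjusted p = 0.12). Of the hepatocyte list 0 of 23 genes were called in this comparison, with a median of -0.18, and 2 of the 3 tested genes of other islet endocrine cells were lower. The muscle sums did not overlap here, at 7.10 to 21.3 CPM in wild type and 3.97 to 6.43 in the labelled knockout line, and their part was not tested.

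**Figure D4:**
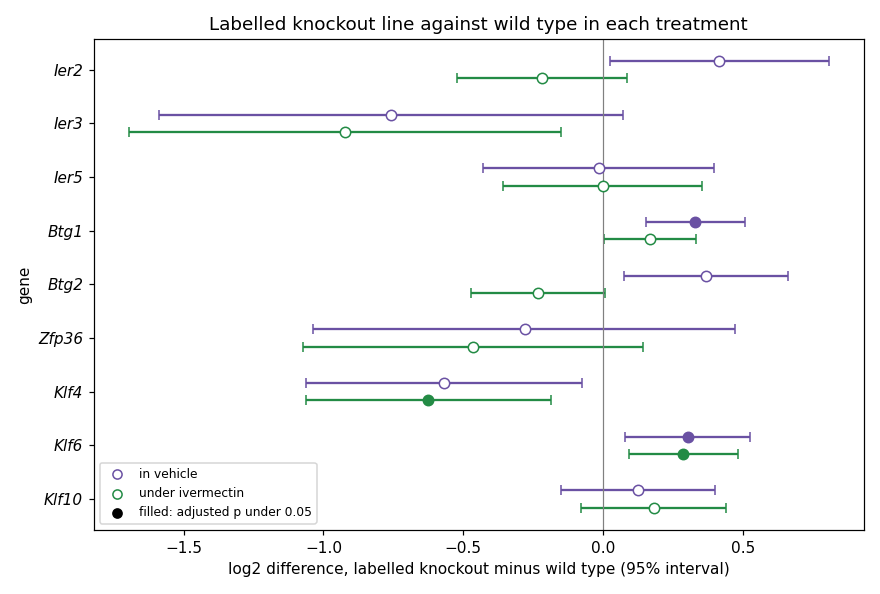
Fitted log2 difference (horizontal axis, labelled knockout minus wild type) with its 95% interval for the 9 genes tested, in vehicle (purple) and under ivermectin (green), filled where the adjusted p is under 0.05. Klf6 is filled in both treatments (0.30 and 0.29), Btg1 in vehicle (0.33) and Klf4 under ivermectin (-0.63), and Ier2 and Btg2 lie above 0 in vehicle and below 0 under ivermectin.

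Ier3 and Klf4 had lower means in both labelled knockout groups than in either wild-type group. Ier3 was at 7.85, 9.71, 4.25 and 7.39 CPM in wild-type vehicle, at 4.95, 7.65, 7.25 and 10.6 in wild-type ivermectin, at 4.04, 5.48, 5.47 and 2.10 in labelled knockout vehicle, and at 5.34, 5.11, 0.65 and 3.86 in labelled knockout ivermectin. The groups overlapped, and 1 library held a single count. Klf4 was at 15.7, 17.5, 21.2 and 22.2 CPM in wild-type vehicle and at 16.2, 14.9, 11.9 and 8.93 in labelled knockout vehicle, overlapping at 1 library of each. Ier5, a regulator of the heat-shock factor Hsf1, was at 23.1 ± 7.18, 25.0 ± 2.37, 22.5 ± 2.01 and 25.0 ± 6.59 CPM across the groups in the same order. Klf10 was at 39.2 ± 5.16, 35.1 ± 2.81, 42.5 ± 4.45 and 40.2 ± 2.72 CPM (SD, n = 4 each), and was the 1 gene of the 9 below 0 with ivermectin in wild type.

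Csrnp1 did not pass the count filter. It had 7 counts over the wild-type vehicle libraries, 17 over wild-type ivermectin, 13 over labelled knockout vehicle and 10 over labelled knockout ivermectin. Its level was 2.24, 0.971, 0 and 3.69 CPM in wild-type vehicle and 2.48, 2.73, 2.64 and 2.28 CPM under ivermectin. The library at 0 allows up to 3.23 CPM. Labelled knockout libraries had 1.15, 2.49, 1.99 and 1.05 CPM in vehicle and 0.534, 1.7, 1.3 and 2.57 CPM under ivermectin. Without a count filter the fit gave 0.51 with ivermectin in wild type (95% interval -0.81 to 1.84, adjusted p = 0.925), -0.19 in the labelled knockout line (-1.44 to 1.07, adjusted p = 1) and -0.70 for the difference between them (-2.53 to 1.13, adjusted p = 1). Between the lines it gave -0.03 in vehicle (-1.42 to 1.37, adjusted p = 1) and -0.73 under ivermectin (-1.92 to 0.46, adjusted p = 0.489). No difference in Csrnp1 was detectable at this depth.

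Other genes of the families were read for comparison. Of 24 relatives 12 passed the count filter, and 0 were called with ivermectin in either line, where 0.601% and 0% of all genes were. Btg3, an antiproliferative relative of Btg1 and Btg2, was the most abundant at 115 TPM in wild-type vehicle and 146 under ivermectin, with a log2 difference of 0.36 (SE 0.222, adjusted p = 0.987). Tob2, another deadenylase-binding relative, gave 0.51 (SE 0.192, adjusted p = 0.656). Zfp36l2 stood at 18.6 TPM in wild-type vehicle, above the 6.92 of Zfp36, while Zfp36l1 was at 0.658. Between the lines in vehicle 1 relative was higher (Klf9, 0.46, adjusted p = 0.0186) and 1 lower (Klf11, -0.52, adjusted p = 0.0187), against 20.6% of all genes called. Under ivermectin 0 were higher and 3 lower, Klf13 (-0.53, adjusted p = 0.00533), Tob2 (-0.51, 0.0203) and Klf11 (-0.45, 0.0245), against 27.8% of all genes called.

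Among 48 other rapid-response genes 40 were tested. With ivermectin in wild type 4 rose and 0 fell: the transcription factors Egr1 (1.53, adjusted p = 2.42e-09), Junb (0.91, 2e-04) and Fos (1.28, 0.000635), and the nuclear receptor Nr4a1 (0.88, 0.0113). With Ier2 and Btg2 these make up the 6 genes called higher in that comparison, out of 10820. The members and this list were chosen with earlier results of these data known, so the overlap is not independent evidence. The median of the 40 was 0.32, against -0.001 over all genes. In the labelled knockout line 0 of 40 were called by edgeR, where 0% of all genes were. In the difference between lines 1 of 40 was called, where 0.222% of all genes were. That gene was Egr1, whose response in the labelled knockout line minus that in wild type was -1.21 (adjusted p = 0.000404). With Alb as a covariate Egr1 still passed in wild type (1.45, adjusted p = 0.000157), while Fos (0.78), Junb (0.59) and Nr4a1 (0.33) did not (adjusted p = 1 for each). Under that covariate the difference of Egr1 between lines was -1.12 and did not pass (adjusted p = 1). In the same fit Fos (0.59), Junb (0.54) and Nr4a1 (0.62) did not pass in the labelled knockout line (adjusted p = 0.776, 0.73 and 0.73). Their differences between lines were -0.19, -0.045 and 0.29. In vehicle 4 of 40 were higher and 4 lower in the labelled knockout line, near the 9.79% and 10.9% of all genes, among them Rhob (0.83), Dusp4 (0.57) and Egr1 (0.67) higher and Plk2 (-0.78) lower. Under ivermectin 1 of 40 was higher, Rhob (0.59), and 11 were lower, against 14% and 13.8% of all genes, among the lower ones Sik1 (-1.95), Plk2 (-1.02) and Nr4a1 (-0.84).

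Known partners and targets of the Btg and Zfp36 proteins were read against the same shares over all genes, 0.601% and 0% with ivermectin in the 2 lines and 20.6% and 27.8% between the lines. Of 16 symbols for the CCR4-NOT and Pan deadenylases and poly(A)-binding proteins 14 were tested, and 0 were called with ivermectin in either line. Between the lines 1 of 14 was called in vehicle and 3 under ivermectin. The scaffold Cnot1 was lower in vehicle (-0.36, adjusted p = 7.97e-05) and under ivermectin (-0.33, 0.000148), where the catalytic subunit Cnot7 was lower (-0.43) and Cnot8 higher (0.44). Of 19 transcripts known for AU-rich elements 8 were tested. With ivermectin Fos rose in wild type and 0 of 8 were called in the labelled knockout line. Between the lines 1 of 8 was called in vehicle and 3 under ivermectin. The growth factor Vegfa was lower in the labelled knockout line in vehicle (-0.48, adjusted p = 2.18e-05) and under ivermectin (-0.38, 0.000197), where Fos (-0.59) and Cdkn1a (-0.38) were lower too.

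The genes most like each profile across the 16 libraries are given as a description, with Pearson's r of log2 CPM among 8649 genes that share the same libraries, depths and groups. The mean profile of the 9 tested genes was most like Nr4a1 (r = 0.866), Junb (0.852), Fos (0.834), Nap1l5 (0.799) and Manea (0.793). Btg2 was most like Fos (0.902), Egr1 (0.868) and Junb (0.856), and Ier2 was most like Luc7l3 (0.853), Fos (0.847) and Junb (0.839). The other 7 were each most like genes outside the rapid-response list, for example Klf6 and Arhgap18 (0.898) or Btg1 and Phyhipl (0.897). Between members, Ier2 and Btg2 gave r = 0.828, and 0.554 after the group means were removed. Other pairs were stronger on that scale, Ier2 and Klf4 at 0.809, Btg1 and Btg2 at 0.576, Klf4 and Klf10 at -0.655 and Btg1 and Zfp36 at -0.794. The 36 pairs of members had a median of 0.0584 with 19 above 0, and a median of 0.0824 with 23 above 0 after the group means were removed.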

How the data were processed

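The 16 mouse libraries in 4 groups were used. Per the submitters' processing notes, STAR 2.7.2b, RSEM 1.3.3, DESeq2 1.32.0 and bcl2fastq were used with the build mm10, and filters are not given in the sources used here. Per the labels' protocols, a directional kit with bead selection of polyadenylated RNA took 125 ng per library through 11 cycles, and reads were paired at 42 nucleotides each. The authors deposited a table of whole-number counts, which equals the deposited RSEM expected counts rounded down in every cell. TPM values are those of RSEM, per the file headers. Human single-cell files of the series were not used.

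Counts were tested with edgeR 4.0.16 (limma 3.58.1, R 4.3.3): filterByExpr (minimum count 10, minimum total 15), TMM factors, 1 mean per group over 16 libraries, quasi-likelihood F test, Benjamini-Hochberg adjustment over all 10820 genes kept, threshold 0.05. CPM are counts relative to the TMM-scaled library total. Standard errors and 95% intervals were derived from the log2 difference and its p. The fit was tested on simulated data. Alternatives were rounded expected counts, DESeq2 1.42.0, relative log expression factors, other count filters, fewer libraries, a replicate block, thinning, Alb as a covariate, and leaving out each library. The 9 members that passed the filter are given from the fit in every comparison, and Csrnp1 from the fit with no filter. From each pathway list, the called genes with the smallest adjusted p were named, at most 4 per comparison. The members and lists were chosen with earlier results of these data known. Promoters came from RefSeq (GRCm38.p6), and 3′ untranslated regions from the GENCODE annotation of GRCm38.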

Additional observations from a re-analysis of the deposited data

Results flagged for a closer look

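In the 40 sets of 4 libraries examined (10 genes in 4 groups), 5 held a library whose gap to its nearest neighbour was large for the range of its group, where chance gives about 1 in 20, or 2. Btg2 in wild-type ivermectin had replicate 1 lowest at 59.4 CPM, with the others at 82.4 to 85.7. Ier2 in wild-type vehicle had replicate 2 lowest at 34.0 CPM, with the others at 38.1 to 38.8, a gap within counting noise on 35 counts. Klf6 in wild-type ivermectin had replicate 3 highest at 82.4 CPM, with the others at 62.4 to 65.0. Zfp36 had replicate 4 highest in both labelled knockout groups, at 8.93 CPM on 17 counts in vehicle (others 4.97 to 5.19) and at 9.01 CPM on 14 counts under ivermectin (others 6.81 to 7.15). The spread of Zfp36 in these groups was near or below counting noise (chi-squared per degree of freedom 1.2 and 0.23).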

How the results depend on the processing

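Over 794 refits of 45 single-gene differences, 695 kept direction and side of the threshold, 32 lost and 11 gained a call, and 56 changed sign. The sign changes touched 18 differences, none above 0.281 in size. Rounded expected counts and relative log expression factors changed no count of members called. With ivermectin in wild type, 2 members were called in the fit reported, 1 with a mean of at least 50 counts (Btg2, adjusted p = 0.0262, while Ier2 missed at 0.0609), 0 with Alb as a covariate, and 1 to 2 with 1 library left out. In the labelled knockout line the count was 0 in each alternative. For the difference between lines it was 0 to 2 with 1 library left out and 0 in the others. In vehicle between lines, 2 became 4 with no filter, 3 with those 8 libraries alone (Ier2 and Btg2 gained a call and Klf6 lost it), 0 when thinned, 0 with Alb, 1 with DESeq2 and 0 to 2 with 1 library left out. Under ivermectin between lines, 2 became 1 with the mean of 50 (Klf4 was not tested), 1 when thinned and 1 with Alb (Klf6 lost its call in both), 0 with DESeq2 and 0 to 4 with 1 library left out. The causes were not tested.

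The counts over all genes moved more. With ivermectin in wild type they went from 65 to 140 with no filter, 7 with the mean of 50, 1 with Alb and 100 without wild-type ivermectin replicate 1. In the labelled knockout line they went from 0 to 23 with no filter. For the difference between lines they went from 24 to 82 with no filter, 4 with the mean of 50, 11 when thinned, 0 with Alb, 15 with DESeq2, and 8 to 45 with 1 library left out. Between the lines they went from 2234 to 403 with Alb in vehicle, and from 3009 to 1920 when thinned under ivermectin. Replicate numbers were not taken to pair libraries, since the labels tie them to no shared source and 2 of 24 same-number correlations (-0.057 to 0.145) were over 0.1. As a hint from the data, 9 of 16 libraries were most like 1 of their own number. With replicate number as a block the members called were 2, 0, 0, 2 and 2 in the order above, and all genes called for the difference between lines were 47.

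Sign changes with Alb as a covariate were, for ivermectin in wild type, Ier3 -0.38 and Klf4 -0.28. For the difference between lines they were Ier3 0.33, Ier5 -0.26, Klf4 0.44 and Klf6 0.13. Between the lines they were Ier5 0.32, Zfp36 0.026 and Klf10 -0.024 in vehicle, and Ier5 0.06 under ivermectin. When thinned, Btg1 was 0.036, Klf4 -0.20 and Klf10 0.091 for ivermectin in the labelled knockout line. With no filter, Ier5 was -0.007 for the difference between lines, 0.015 between lines in vehicle and 0.009 under ivermectin. With 1 library left out, ranges that crossed 0 were -0.17 to 0.19 for Ier3 and -0.066 to 0.27 for Ier5 with ivermectin in wild type. In the labelled knockout line they were -0.38 to 0.16 for Ier3, -0.042 to 0.22 for Ier5 and -0.076 to 0.18 for Klf4. For the difference between lines they were -0.39 to 0.15 for Ier3, -0.16 to 0.20 for Ier5, -0.48 to 0.13 for Zfp36, -0.27 to 0.053 for Klf4, -0.062 to 0.079 for Klf6 and -0.008 to 0.15 for Klf10. Between the lines they were -0.20 to 0.13 for Ier5 and -0.60 to 0.022 for Zfp36 in vehicle, and -0.18 to 0.087 for Ier5 under ivermectin. Ier3, Zfp36 and Csrnp1 had the fewest counts of the members in each group.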

Other observations

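Lists tied to single members by known biology were read against 0.601% and 0% of all genes called with ivermectin in the 2 lines. Of 13 tested p53 targets, the class to which Btg2 belongs, 0 were called in either line. Between the lines 2 were higher (Perp, 1.03, and Bax, 0.42) and 1 lower (Sesn2, -0.34) in vehicle, and 3 were higher and 3 lower under ivermectin, with Perp at 1.14. Over all genes 20.6% were called between the lines in vehicle and 27.8% under ivermectin. Of 15 heat-shock genes, which Ier5 is known to affect through Hsf1, 0 were called with ivermectin in either line. Between the lines 1 was higher and 2 lower in vehicle (Hspa8 0.15, Hsph1 -0.42, Hspb1 -1.31), and 3 were higher and 3 lower under ivermectin (Hspe1, 0.50, had the smallest adjusted p, 3.65e-05).

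Of 11 tested genes linked to early TGF-β signalling, where Klf10 is known as an induced factor, 0 were called with ivermectin in either line. Between the lines 2 were higher and 1 lower both in vehicle and under ivermectin, where 20.6% and 27.8% of all genes were called. Tgfb1 (1.61 and 1.54) and Id2 (0.45 and 0.46) were higher in the labelled knockout line and Tgfb2 lower (-1.81 and -1.74), while Klf10 gave 0.12 (adjusted p = 0.57) and 0.18 (adjusted p = 0.308).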
